A study of Salmo salar with 12 samples.

Results

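Liver-specific low-methylation tiles are 1 kb stretches of the Atlantic salmon genome at which CpG methylation in liver lay at least 25 percentage points (points below) under that of both ovary and pituitary. A tile entered when 3 or more CpG cytosines were listed in all 12 libraries, and its level in a library was the percentage of methylated reads, summed over those cytosines. Of 495114 such tiles, 1869 (0.377%) met the rule. The members were chosen by the mean level of the 4 libraries of each tissue, so the difference between liver and the other tissues describes the choice and was not tested over these 12 libraries.

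Whole-genome bisulfite sequencing covered liver, ovary and pituitary of female Atlantic salmon from 1 management group held in tanks. T4 libraries came from the final sampling, after day length had been extended to bring on maturation, and T1 libraries from fish taken ahead of that change, with 2 libraries per tissue and time point. Several library titles share a code between tissues of a time point, so libraries of different tissues may come from the same fish. All fish shared this husbandry, and no library came from a mutant or a transgenic line. The tissues were taken whole, so an intermediate level cannot separate fewer cells with a methylated copy from a mixture of states within each cell. The libraries listed 9063730 to 12056957 cytosines with at least 10 reads each, and 3563979 cytosines were common to all 12. Members had 30 reads or more in every library, with a median of 96 reads per member and library. Mean coverage per cytosine had a median of 22.3 reads over members and 22.8 over all tiles.

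In vertebrates most CpGs are methylated in every tissue, and the main exceptions are CpG-rich promoters, which stay unmethylated whether or not their gene is active. A second class of exceptions differs between tissues. Enhancers bound by the transcription factors of a cell type lose methylation in that cell type, usually over a short stretch and often only in part, while the same DNA stays methylated elsewhere. Liver is a tissue of hepatocytes, which make plasma proteins, run amino acid and nitrogen metabolism and, in maturing female fish, secrete egg yolk precursors.

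The liver-low tiles were partly methylated in liver and at the usual high level of the genome in the other tissues. Averaged over the 1869 members, the level was 41.3 and 45.0% in the T4 livers and 41.8 and 45.5% in the T1 livers. The same tiles averaged 79.3 to 80.2% in the 4 ovary libraries and 81.9 to 83.1% in the 4 pituitary libraries. The tissue means were 43.4% ± 2.14 in liver, 79.9% ± 0.399 in ovary and 82.7% ± 0.562 in pituitary (SD, n = 4 libraries each). Over all tiles liver was the most methylated tissue, at 81.8%, beside 77.9% in ovary and 79.4% in pituitary. The rule sets liver lowest at the members, so their other order of the tissues is part of the choice. The plot of levels by library shows both sets of values.

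**Figure D1:**
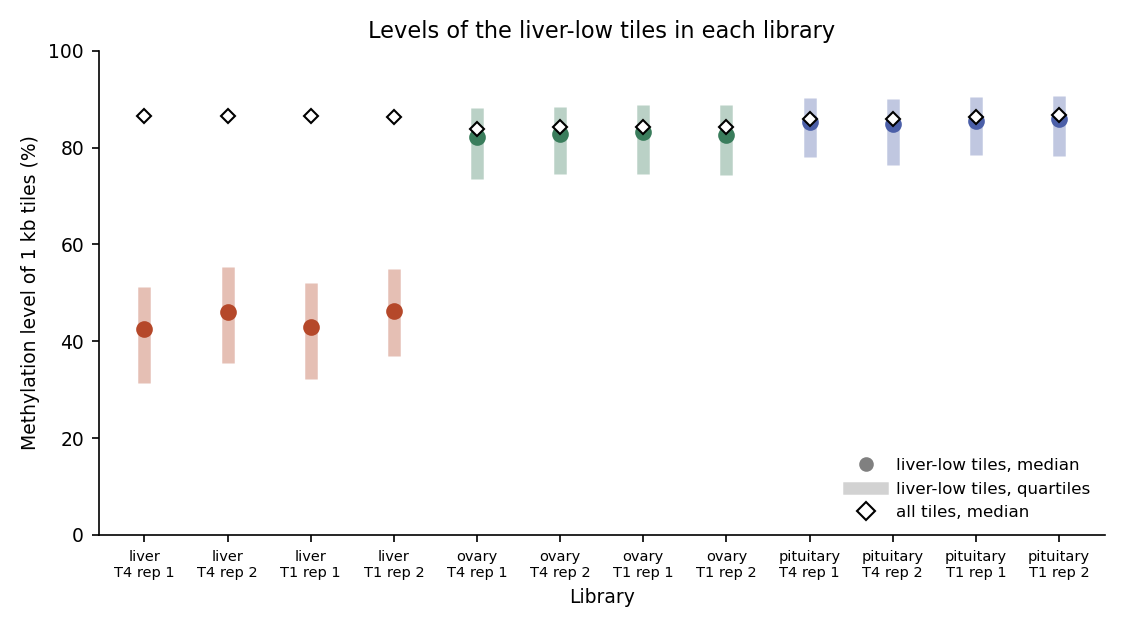
Methylation level (%) of 1 kb tiles in each of the 12 libraries. Filled points are medians and bars quartiles over the 1869 liver-low tiles, and open diamonds are medians over all 495114 tiles. The 4 liver medians of the liver-low tiles lie between 42.5 and 46.3%, and the 8 ovary and pituitary medians between 82.1 and 85.8%, close to the medians of all tiles.

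The gap, defined as the lower of the ovary and pituitary levels minus the liver level, had a median of 33.1 points and reached 62.4. It was at least 40 points in 454 members and at least 50 in 96. The 3 members just inside the threshold had gaps of 25.02 to 25.05 points, and the 3 tiles just outside it had 24.99 to 24.998. In 1812 members (97.0%) all 4 liver libraries lay below all 8 others, a pattern that 1.78% of all tiles showed. The rule used these values, so this count is part of the description.

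Few members were free of methylation in liver. The liver level was below 10% in 14 members, 10 to 25% in 115, 25 to 50% in 1138 (60.9%) and 50% or more in 602 (32.2%). Only 6.90% of the liver-low tiles were below 25% in liver, against 11.1% below that level in their own tissue among the 10158 tiles low in ovary and 27.7% among the 11716 low in pituitary by the same rule. The members lowest in liver were, by their median, below the genome's usual level in at least 1 other tissue. For the 14 members under 10% in liver, the median of the lower of the ovary and pituitary levels was 35.9%, against 86.6% for the 602 members at 50% or more. The rule puts that level at least 25 points above liver, so much of this step follows from the rule. The same bins gave 43.5 and 85.0% for the tiles low in ovary, and 45.6 and 85.8% for those low in pituitary.

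Members rested on a median of 4 common cytosines, beside 5 over all tiles, and 617 had the minimum of 3. The widest gap of all, 62.4 points, was at a tile of 3 cytosines. Some members with wide gaps had many cytosines behind them. The widest gap among the 99 members with at least 10 common cytosines was at ssa02:57648001-57649000, with 12 cytosines. Its level was 28.3 and 29.6% in the T4 livers and 31.4 and 42.4% in the T1 livers. It was 86.4 to 89.9% in the 4 ovary libraries and 85.0 to 88.9% in the 4 pituitary libraries. Every one of its 12 cytosines was at least 25 points lower in liver, and their liver levels ran between 26.9 and 37.8%, over the 715 bases between the first and the last.

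The next 2 also had liver far below the other tissues. At ssa18:52988001-52989000, 10 cytosines within 274 bases read 26.2 and 28.9% in the T4 livers and 19.4 and 29.6% in the T1 livers, below 73.6 to 83.8% in ovary and 73.5 to 82.3% in pituitary. At ssa28:2056001-2057000, 10 of 11 cytosines were at least 25 points lower in liver and the remaining cytosine was not lower. That tile read 25.6 and 27.4% in the T4 livers and 32.1 and 51.4% in the T1 livers, below 76.7 to 86.3% in ovary and 87.6 to 96.1% in pituitary. In all 3 tiles the liver libraries lay apart from the other 8.

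The last 2 tiles of this group differed from each other in evenness. At ssa18:62829001-62830000 all 11 cytosines were at least 25 points lower in liver, and the tile read 40.1 and 44.5% in the T4 livers and 29.0 and 37.7% in the T1 livers, below 80.2 to 87.9% in ovary and 77.9 to 91.3% in pituitary. At ssa21:41271001-41272000 the liver level of single cytosines ran between 13.8 and 74.9%, and 8 of 10 were at least 25 points lower. This last tile read 35.1 and 43.2% in the T4 livers and 41.4 and 45.9% in the T1 livers, below 80.1 to 86.3% in ovary and 88.3 to 90.7% in pituitary.

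The cytosines of a member often differed in their liver level. Of the 9296 cytosines that make up the 1869 members, 72.2% were at least 25 points lower in liver than in both other tissues, beside 0.722% of all common cytosines. All cytosines were lower in liver in 1417 members (75.8%), and all were at least 25 points lower in 513 (27.4%). The rule used the reads of these same cytosines, so these shares are part of the description. Within a member, the liver levels of the cytosines spanned a median of 31.8 points. This span was not set beside that of other tissues or of other tiles. Among the 99 members with at least 10 cytosines, 50 had every cytosine lower in liver and 55 had a liver range of over 50 points.

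Cytosines in the same tiles that the rule did not use, because at least 1 library listed fewer than 10 reads there, gave a second reading from the same libraries. Such cytosines, 3 or more listed in each tissue, were found in 1156 members. Their median level was 61.5% in liver, 81.8% in ovary and 83.9% in pituitary, and the gap had a median of 13.7 points, against 33.2 points at the rule's cytosines of the same members. The gap was 25 points or more in 333 members (28.8%) and 0 or more in 939 (81.2%). These shares were 0.386% and 26.0% of the 344345 tiles that could be read this way. Over all such cytosines of members that were listed in each tissue, liver was below both others at 5228 of 8191 (63.8%), beside 28.9% of such cytosines over all positions, tested tile or not.

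The levels next to the tiles were also read. The mean liver level of cytosines was 43.4 to 44.6% within 400 bp of the tile centre, 51.6 and 51.4% in the bins that hold the tile edges, and 74.7 and 75.7% in the bins at 600 to 800 bp. Beyond 1 kb from the centre, liver again exceeded the lower of the other tissues in every bin out to 5 kb on both sides. The edges of the profile follow the tile by construction. The 816 tested tiles next to a member that were not members averaged 77.2% in liver, 77.6% in ovary and 78.6% in pituitary. In 11.8% of these neighbours the gap was 10 points or more, beside 1.64% of all tiles.

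**Figure D2:**
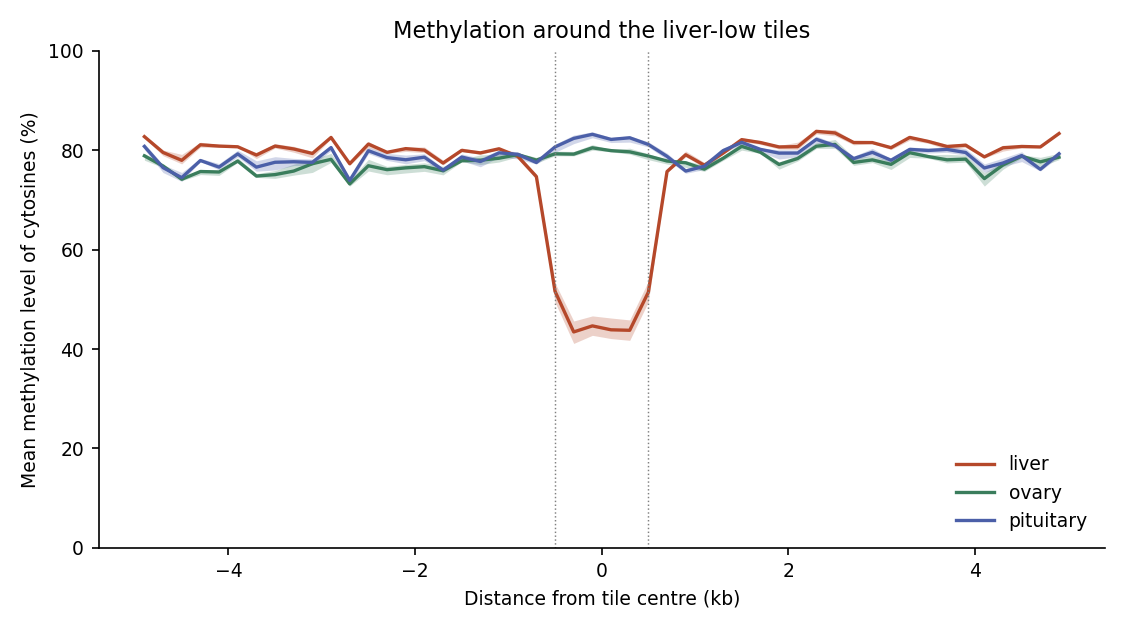
Mean methylation level (%) of common cytosines in 200 bp bins by distance from the centre of the liver-low tile (kb), with other member tiles left out. Lines are means of 4 libraries per tissue, shading is the range of those libraries, and dotted lines mark the tile edges. Liver drops to 43.4% inside the tile and returns to 78.8 and 79.1% in the bins at 800 to 1000 bp, while ovary and pituitary stay between 73.2 and 83.2%.

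Another member adjoined 110 members (5.89%), as 55 pairs, and there was no longer run. Most places beside a member held no tested tile. Of 3738 such places 926 (24.8%) held one, and 110 of these tiles (11.9%) were members, beside 0.377% of all tiles. The share of tiles that adjoined another of their own kind, 5.89% for the members, was 8.97% for the tiles low in ovary. It was 9.21% for those low in pituitary. Both of these sets are more numerous than the members. The pair with the widest summed gap was at ssa01:89667001-89669000, where 4 cytosines in each tile averaged 33.7% ± 3.90 and 32.7% ± 12.2 in liver, below 87.0% ± 7.12 and 85.8% ± 5.77 in ovary and 89.5% ± 2.52 and 80.3% ± 6.56 in pituitary (SD, n = 4). At the pair ssa09:18042001-18044000 liver averaged 35.4% ± 17.6 and 39.0% ± 3.11, and at ssa15:35218001-35220000 it averaged 34.5% ± 5.18 and 51.1% ± 8.82, with both other tissues above 82% in these 4 tiles. The first tile of the ssa09 pair varied most among livers, at 14.6 and 54.1% in the T4 livers and 27.9 and 44.9% in the T1 livers. The densest group of members was the 10 kb window ssa05:67840001-67850000, where 4 of 5 tested tiles were members.

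The members were spread over the genome and were not rich in listed cytosines. A member held a median of 12 listed cytosines, beside 14 over all tiles. The tiles low in ovary and those low in pituitary also had a median of 12. A cytosine counted as listed if any library had at least 10 reads there, and the CpG density of the sequence was not measured. On the 29 chromosome sequences lay 1799 members (96.3%), beside 92.2% of all tiles. The share of tiles that were members ran between 0.238% on ssa08 and 0.484% on ssa23. A tile counted as unmethylated in every tissue when all 3 tissue levels were under 10%. Such a tile lay within 5 kb of 2.73% of members, 1.75% of the tiles low in ovary and 1.83% of those low in pituitary. The share was 2.31% of all tiles, with those unmethylated in every tissue left out. By this measure the members lay about as far from constantly unmethylated DNA as other tiles did.

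The choice and the test can be separated, because T4 and T1 libraries came from different fish. The rule applied to the 6 T1 libraries alone chose 1926 tiles, of which 1590 were also members. In the 6 T4 libraries these tiles had a median gap of 31.1 points, against 33.2 points in the T1 libraries that chose them and -3.38 points over all tiles in T4. Liver was significantly lower than both ovary and pituitary in T4 in 1518 of the 1926 tiles (78.8%), with edgeR's quasi-likelihood test and Benjamini-Hochberg adjustment over all tiles (adjusted p under 0.05 for both), beside 0.773% of all tiles. The T4 gap was again 25 points or more in 1331 (69.1%), at least 10 in 1851 (96.1%) and above 0 in 1916. Both T4 livers lay below all 4 T4 ovary and pituitary libraries in 1839 (95.5%), beside 7.14% of all tiles.

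**Figure D3:**
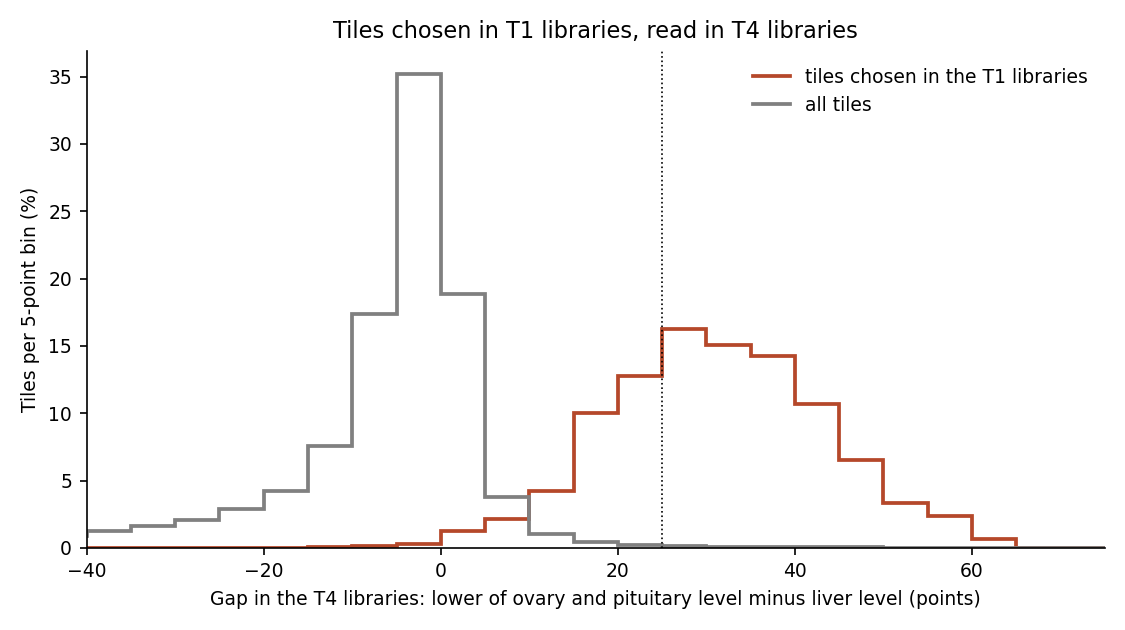
Gap in the T4 libraries (points, x axis) of the 1926 tiles chosen in the T1 libraries and of all 495114 tiles, as the percentage of tiles per 5-point bin (y axis). The dotted line marks the 25 points of the rule. The chosen tiles centre at 31.1 points and all tiles at -3.38 points.

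The time points were then compared within each tissue. The rule used tissue means over both time points, and not the contrast between them. No member changed in liver between T4 and T1 at an adjusted p under 0.05 by edgeR's quasi-likelihood test, beside 0.0378% of all tiles. Limma also called 0 members, and called only 10 of all tiles. At an unadjusted p under 0.05, 146 members (7.81%) passed, beside 5.19% of all tiles and 9.02% of the 20783 other tiles with a liver level between 20 and 60%. The T4 minus T1 difference in liver had a median of -0.386 points over members, with quartiles of -6.05 and 5.10. It was 10 points or more in size in 455 members (24.3%), beside 21.9% of the other tiles at 20 to 60% and 4.65% of all tiles. The member with the smallest p in liver, ssa06:33180001-33181000, read 66.7 and 82.8% in the T4 livers and 42.2 and 38.1% in the T1 livers (adjusted p = 0.0944, edgeR). Ovary at that tile was 87.5 to 96.6% and pituitary 92.5 to 95.7%.

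In ovary 1 member was called, beside 0.102% of all tiles. At ssa11:57462001-57463000, with 7 cytosines, the ovaries read 70.7 and 66.2% at T4 against 27.3 and 30.4% at T1 (log2 fold change of the methylated to unmethylated ratio 2.42, adjusted p = 0.00921, edgeR). Liver was 31.3 and 21.1% at T4 and 13.4 and 22.1% at T1, and pituitary was 67.9 to 82.2%. The ovary level was therefore close to that of liver before the long-light regime and close to that of pituitary at T4. Mean levels were 28.9% in ovary and 17.7% in liver at T1, and 68.4 and 26.2% at T4. The tile thus met the rule through its T4 ovaries, and its choice and this call share those values. The call was lost, with 0 members called, when ovary T1 replicate 2, ovary T4 replicate 1 or ovary T4 replicate 2 was left out.

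In pituitary 1 member was called, beside 0.0436% of all tiles. At ssa02:9306001-9307000, with 6 cytosines, the pituitaries read 75.2 and 73.8% at T4 against 93.8 and 91.7% at T1 (log2 fold change -2.10, adjusted p = 0.0129, edgeR). Liver was 37.6 to 46.2% and ovary 67.5 to 75.6% over both time points. No member lower at T4 was called when any 1 of the 4 pituitary libraries was left out, and a member higher at T4 was called without T1 replicate 1 or T4 replicate 2.

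Pituitary and ovary were also set against each other at these tiles. The rule holds both at least 25 points above liver and so limits how far they can differ, and the shares that follow are a description. Pituitary exceeded ovary significantly in 273 members (14.6%), beside 13.2% of all tiles, and was lower in 66 (3.53%), beside 7.71% of all tiles (edgeR, adjusted p under 0.05). The pituitary minus ovary difference had a median of 1.96 points over members and 1.42 over all tiles. Among the 339 called members the median size of the difference was 14.6 points. The size of the difference had a median of 4.09 points over members and 3.45 over all tiles.

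The livers differed among themselves more than the other tissues did at these tiles. The range of the 4 libraries had a median of 16.1 points in liver, 9.62 in ovary and 8.83 in pituitary, and it was 14.2 points in liver at the 20783 other tiles with a liver level of 20 to 60%. Replicate 1 was below replicate 2 in 1160 members (62.1%) among T4 livers, beside 49.97% of all tiles, and in 1171 (62.7%) among T1 livers, beside 49.1% of all tiles. The mean difference, replicate 1 minus replicate 2, was -3.68 points at T4 and -3.65 at T1 over members. At the other tiles of 20 to 60% it was -0.198 at T4 and -0.435 at T1, and at the tiles low in ovary or pituitary it lay between 0.109 and 0.831 points. Within each time point, then, 1 liver was lower over the liver-low tiles as a set and by less, or not at all, over the other sets of tiles. The part that the make-up of the liver samples plays in this was not tested.

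Gene names were available for few of the tiles. The study's annotation table, which lists genes near its own differentially methylated regions, placed 2060 genes on this assembly, and 112 members lay in or within 5 kb of 95 of them. Of these, 88 lay in a gene body, 14 upstream and 10 downstream, and exons and introns were not told apart. The genes below were picked for their known roles after the levels had been seen, and stand as examples. The sets they form are not complete, so the sizes of the sets cannot be compared. Of the 94 genes on the marker lists for liver, pituitary, ovary, blood and stroma, 3 could be placed and 0 lay at a member. These are too few for the tissue labels to be checked against them.

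Members at 10 genes of metabolism and secretion had liver levels between 13.9 and 56.4%. A tile upstream of fa9 (ssa20:41033001-41034000), the gene of coagulation factor IX, a clotting protease that the liver secretes, read 62.3 and 24.4% in the T4 livers and 44.1 and 54.7% in the T1 livers. It was 77.2 to 89.9% in ovary and 83.8 to 94.5% in pituitary, so the livers varied widely yet stayed below the other 8 libraries. A tile in a histidine ammonia-lyase-like gene (ssa16:3370001-3371000), whose enzyme takes the first step of histidine breakdown, was even among livers, at 46.5 and 51.6% at T4 and 51.3 and 50% at T1, below 85.0 to 89.2% in ovary and 83.0 to 91.2% in pituitary.

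The tile in haao (ssa01:52856001-52857000, 10 cytosines) belongs to an enzyme of the route that turns tryptophan into NAD. It read 45.1 and 28.1% in the T4 livers and 28.3 and 44.6% in the T1 livers, below 61.5 to 74.1% in ovary and 64.7 to 73.8% in pituitary. The tile in klb (ssa05:34788001-34789000, 10 cytosines), which encodes klotho beta, a co-receptor for endocrine fibroblast growth factors that restrains bile acid synthesis in mammals, was one of the smaller differences. It read 47.8 and 65.0% in the T4 livers and 55.4 and 57.4% in the T1 livers, below 84.6 to 90.5% in ovary and 75.4 to 86.6% in pituitary.

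The tile upstream of glna (ssa03:26210001-26211000, 5 cytosines), a gene of glutamine synthetase, which fixes ammonia into glutamine, was nearly unmethylated in 3 livers. It read 3.54 and 4.35% in the T4 livers and 3.12% in T1 replicate 2, but 44.5% in T1 replicate 1. It was 25 to 54.8% in ovary and 32.4 to 51.9% in pituitary, so that 1 liver overlapped the other tissues. Without that library the liver mean was 3.67% and the gap 38.1 points, against 13.9% and 27.9 points with it. Members also lay in genes of 2-oxoglutarate dehydrogenase (38.0% in liver, 71.9% in ovary and 77.5% in pituitary) and fumarate hydratase (34.9, 66.5 and 66.3%), both enzymes of the citric acid cycle, and of hprt1, which salvages purines (33.2, 88.3 and 92.0%).

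Members at 9 genes of transcription and chromatin spanned nearly the whole range, with liver levels between 1.78 and 58.0%. In onecut2 (ssa13:102013001-102014000), a homeobox factor of liver and nervous system in mammals, the tile read 47.1 and 41.0% in the T4 livers and 23.9 and 41.9% in the T1 livers, below 82.3 to 92.6% in ovary and 86.0 to 88.6% in pituitary. The gene of the retinoid X receptor RXR-alpha-A, the shared partner of many nuclear receptors, had 1 member in its body and another upstream. The body tile (ssa11:69742001-69743000) read 16.3 and 27.8% in the T4 livers and 29.1 and 22.9% in the T1 livers, below 70.4 to 81.2% in ovary and 63.2 to 77.4% in pituitary. The upstream tile (ssa11:69736001-69737000) had a smaller gap, with means of 45.8% ± 12.9 in liver, 72.9% ± 1.49 in ovary and 74.5% ± 6.95 in pituitary (SD, n = 4).

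A pair of these genes had a step between each tissue. At nr2f2 (ssa10:81588001-81589000), which encodes an orphan nuclear receptor, liver was 1.38 and 12.5% at T4 and 3.55 and 6.97% at T1, ovary was 30.9 to 45.0% and pituitary 61.6 to 74.6%. At a gene similar to KDM6B, a histone H3 lysine demethylase (LOC106608825, ssa07:20218001-20219000), liver was 5.36 and 0% at T4 and 0 and 1.75% at T1, ovary was 22.0 to 52.3% and pituitary 79.0 to 88.5%. Pituitary exceeded ovary by 35.3 points at nr2f2 (adjusted p = 1.7e-05, edgeR) and by 48.4 points at the KDM6B-like gene (adjusted p = 1.61e-06, edgeR), and the 3 tissues did not overlap at either tile.

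A tile in a gene similar to the nuclear receptor coactivator 3 (ssa15:61675001-61676000, 10 cytosines) split the livers by replicate. It read 14.7 and 51.2% in the T4 livers and 20.8 and 51.4% in the T1 livers, against 78.1 to 86.5% in ovary and 71.1 to 77.6% in pituitary. The gene of meis2, a homeobox factor, had 4 members, 2 in its body and 2 downstream, with liver means of 38.0 to 58.0%, ovary means of 75.1 to 85.1% and pituitary means of 69.2 to 83.1%.

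**Figure D4:**
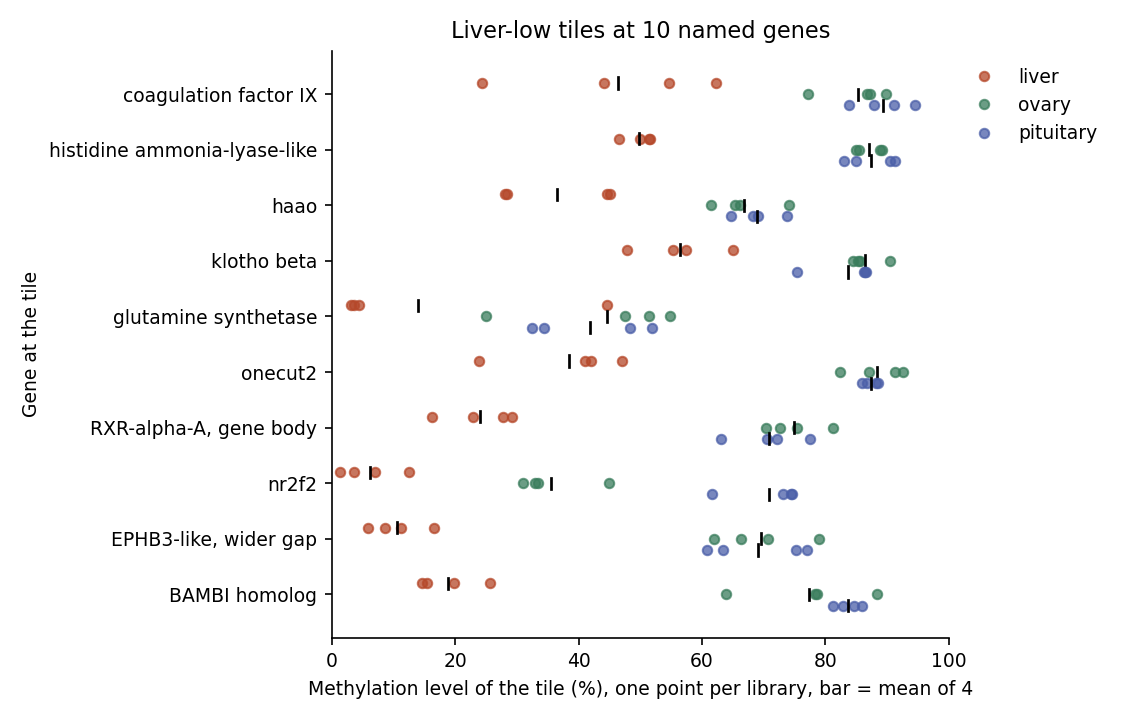
Methylation level (%) of liver-low tiles at 10 named genes. Each point is 1 library, liver above ovary above pituitary within a gene, and bars are means of 4 libraries. At glutamine synthetase 3 livers are under 5% and 1 is at 44.5%, and at nr2f2 the tissue means step between 6.10, 35.6 and 70.9%. In the other 8 tiles the 4 livers lie below all ovary and pituitary points.

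Among genes of signalling, an ephrin type-B receptor 3-like gene (LOC106613452), a receptor tyrosine kinase of cell contact, held the member with the widest gap among those at a gene with a described product. Its tile at ssa10:5764001-5765000 read 8.59 and 5.83% in the T4 livers and 16.5 and 11.3% in the T1 livers, below 62.0 to 78.9% in ovary and 60.8 to 77.0% in pituitary. The adjoining tile, ssa10:5765001-5766000, was a member by a narrow margin, at 57.1% ± 9.67 in liver, 82.2% ± 8.15 in ovary and 84.3% ± 4.32 in pituitary (SD, n = 4). A tile in the gene of the BAMBI homolog (LOC106578551, ssa19:18791001-18792000), a decoy receptor that dampens signals of the TGF-beta family, read 19.8 and 25.6% in the T4 livers and 15.4 and 14.6% in the T1 livers, below 63.8 to 88.4% in ovary and 81.2 to 85.9% in pituitary.

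Genes best known from neurons and cell adhesion were also among the hosts. A chosen set of 7 such genes held 12 members, with liver levels between 20.7 and 61.4%. Further hosts of this kind, among them pcdh10, a synaptotagmin-1-like gene and a latrophilin-3-like gene, were left out of that set. The teneurin-3 gene held 3 of them, with liver means of 34.9, 54.2 and 51.8% beside 73.1, 87.8 and 83.3% in ovary and 92.5, 92.6 and 86.0% in pituitary. A CELSR1-like gene, of a cadherin of planar cell polarity, held 4, with liver means between 20.7 and 61.4%. In a gene similar to the potassium channel KCND2, 1 member averaged 22.4% in liver, 74.3% in ovary and 68.1% in pituitary. The members named here lay at genes of metabolism and secretion, of transcription and of signalling, as well as at genes best known from neurons and cell adhesion. Expression of these genes was not examined. The partial annotation does not allow their shares to be compared with those of other tiles.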

How the data were processed

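Female Atlantic salmon liver, ovary and pituitary were profiled at T4 and T1, with 2 libraries each. Per the study's methods and the submitters' processing notes, the authors trimmed reads with Trim Galore 0.5, aligned them with BS-Seeker2 2.1.8 and Bowtie2 to the ICSASG_v2 assembly and removed duplicates with Picard. The deposited files hold the raw count of reads and of methylated reads per CpG cytosine with at least 10 reads, not normalised, so regions of low coverage are missing. Chromosome names (ssa) are those of the study.

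Tiles of 1000 bases starting at multiples of 1000 were summed over cytosines common to all 12 libraries (Python 3.11.15, numpy 2.4.6). Methylated and unmethylated counts were tested with edgeR 4.0.16 (R 4.3.3), with a library effect, tissue and time point terms and 1 common dispersion (0.0228, from 20000 tiles, and 0.0212 for the T4 libraries), and with limma 3.58.1 on log2 ratios with a pseudocount of 1 as an alternative. DSS, used in the study, was not installed. Adjustment was over all 495114 tiles. The edgeR and limma steps were run on simulated tiles with shifts put in the T4 livers alone. The contrasts within pituitary and between pituitary and ovary were not simulated, and false calls were not counted for limma. The labels call the libraries of a group biological replicates and do not say whether tissues of a time point share fish.

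Members, lists and tests were chosen with earlier results of these data known. Named tiles are the 5 widest gaps with at least 10 cytosines, the 3 pairs with the largest summed gap, and called members with the smallest p. Gene tiles were picked after their values were seen. Gene positions and names came from the study's annotation table, of which a shortened copy was used, and its comparison columns were not used. Sequences of the tiles are not shown, since the genome of this assembly was not used here.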

Additional observations from a re-analysis of the deposited data

Results flagged for a closer look

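In 4 of the 87 sets of 4 libraries given above, 1 library stood far from the other 3, with a gap to its nearest neighbour of more than 0.829 of the whole range. Chance flags about 1 in 20 such sets. The 87 sets leave out some tiles given above by tissue means only, among them tiles of teneurin-3 and hprt1, where such libraries also occur. In the teneurin-3 tile at ssa08:10327001-10328000, ovary T1 replicate 2 read 59.9% and the other ovaries 75.9 to 78.5%. At ssa03:26210001-26211000, upstream of the glutamine synthetase gene glna, the liver set was marked (0.970), with T1 replicate 1 at 44.5% and the others at 3.12 to 4.35%. At ssa05:34788001-34789000 in klb the pituitary set was marked (0.978), with T4 replicate 2 at 75.4% and the others at 86.3 to 86.6%. At ssa15:35218001-35219000 the ovary set was marked (0.893), with T1 replicate 2 at 79.8% and the others at 92.3 to 93.8%. At ssa10:81588001-81589000 in nr2f2 the pituitary set was marked (0.885), with T4 replicate 1 at 61.6% and the others at 73.1 to 74.6%.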

How the results depend on the processing

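The number of liver-low tiles, 1869 as reported, was 99 of 69045 tiles with at least 10 common cytosines, 333 of 98596 with at least 20 reads in every library, 2931 at a gap of 20 points and 784 at a gap of 35 points. It stayed between 1824 and 2006 when any 1 library was left out, and was 1862 with tiles shifted by 500 bases. Levels taken as the mean of the cytosines also gave 1869, of which 1730 were the same tiles. For the tests, each library of the tissues compared was left out in turn. Called members in liver (0 as reported) were 0 to 2 with 1 library left out, with 2, both lower at T4, without liver T1 replicate 2. In ovary (1 as reported) they were 0 with limma, with 10 cytosines or with 20 reads, and 0 to 1 with 1 library left out. In pituitary (1 as reported) they were 0 with limma or 10 cytosines, 2 with 20 reads, and 0 to 1 with 1 library left out. Members called between pituitary and ovary (339) were 28 of 99 with 10 cytosines, 78 of 333 with 20 reads, and 252 to 295 with 1 library left out. Tiles chosen in T1 and called in T4 (1518 of 1926) were 92 of 101 with 10 cytosines, 1149 with limma, 1533 of 2137 with the time points exchanged, and 1087 to 1384 with 1 library left out, lowest without liver T4 replicate 1, where all tiles called fell to 2025 against 3825. Over all tiles, pituitary and ovary differed in 17670 of 69045 with 10 cytosines and in 28203 of 98596 with 20 reads. Liver was called below both other tissues in T4 in 496 of 69045 tiles with 10 cytosines and in 2028 of all tiles with limma. With the time points exchanged it was called in 3809. T4 against T1 was called by limma in 10 tiles in ovary and 8 in pituitary. With 20 reads it was called in 39 of 98596 tiles in liver, 268 in ovary and 34 in pituitary. With 10 cytosines it was called in 50 of 69045 tiles in liver, 167 in ovary and 55 in pituitary. Fewer tiles enter under the stricter minimums, and a smaller share of these were members. With 10 cytosines it was 99 of 69045, beside 1869 of all 495114 tiles. The cause of these shifts was not tested.

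Replicate numbers did not meet the criterion for pairing, a correlation over 0.1 in every pair of groups. That criterion also counts pairs of groups across time points, whose fish differ. It therefore cannot decide whether tissues of a time point share fish, and the labels do not tell this either. The titles and the file names of the 2 ovary T1 libraries disagree on which is which, so their numbers, taken from the descriptions, are uncertain. Deviations of same-numbered libraries from their group means correlated across tiles at 0.205 between T1 liver and T1 pituitary and 0.150 between T4 ovary and T4 pituitary, and at under 0.1 in size for every other pair of groups. All 6 pairs of tissues at the same time point were positive, between 0.0603 and 0.205, and the 9 pairs across time points lay between -0.0401 and 0.0104. A replicate block, a term for replicate 2 shared by all libraries of the fit, was also tried. In the fit of 12 libraries it joins the time points, whose fish differ, so it does not model fish shared within a time point. Called members were then 1 in liver, 2 in ovary, 1 in pituitary and 347 between pituitary and ovary. Over all tiles the counts were 363, 1077, 421 and 104844. With the block 1573 of the T1 choice were called in T4, beside 4496 of all tiles. Members had a median of 96 reads per library, and the smallest difference between time points that this depth could show was not tested.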
